A study of Sus scrofa with 3 samples.

Results

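The miR-99, miR-100 and miR-125 families were followed in the liver of 3 pig breeds. All mature miRNAs named ssc-miR-99a, ssc-miR-99b, ssc-miR-100, ssc-miR-125a or ssc-miR-125b, with or without an arm ending, were taken from the deposited counts, which gave 5 of the 411 mature names. The 5 names stand on 6 rows and 6 precursors, because ssc-miR-125b is listed under 2 precursors, and none of them carries an arm ending. The study sequenced small RNA from livers of males aged 90 postnatal days. One library came from the Enshi black pig, which is a domestic breed of China, one from the Chinese wild boar, and one from the Large White pig, a commercial breed of European origin. The labels speak of 3 pigs and 3 liver samples and name no treatment or genetic change in any of them. Every comparison below is therefore between 1 library and another, it includes any difference between individual animals, and no p-value was computed.

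MicroRNAs guide the silencing machinery to messenger RNAs mainly through their seed, a short stretch near the 5′ end. miR-99a, miR-99b and miR-100 share one seed and are known in human and mouse cells to repress components of growth signalling, including the kinase mTOR and the receptor IGF1R. miR-125a and miR-125b share another seed and are the vertebrate counterparts of lin-4, the worm miRNA that times development, and miR-125b is known in human cells to repress the tumour suppressor p53 and the apoptosis effector BAK1. In mammals a gene of each family usually lies beside a let-7 gene, as a cluster that can be transcribed together, and let-7 is the other classic timing miRNA of worms. In vertebrates miR-125 and let-7 both target the RNA-binding protein LIN28, which blocks let-7 maturation.

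Of the 6 precursors, 5 were matched by name in RefSeq's gene table for the assembly Sscrofa11.1, which was used for names and neighbours alone. The table puts MIR99A beside MIRLET7C. It puts MIR100 and MIR125B-1 near MIRLET7A-1, and MIR99B and MIR125A near MIRLET7E, with neighbours sought within 100 kb. The precursor ssc-mir-125b-2 was not matched; in human and mouse it belongs to the cluster of miR-99a and let-7c. let-7c and let-7e are each listed with 1 precursor, but their counts hold fractions of reads shared with other names. miR-125b and let-7a are listed with 2 precursors each, so their reads cannot be assigned to a cluster.

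The deposited counts summed to 7739853 in the Enshi black, 7837309 in the wild boar and 7350179 in the Large White library. The tissue label was checked with the hepatocyte miRNA miR-122, which took 34.2%, 39.5% and 41.4% of all reads in that order. Levels are given as CPM, counts per 1000000, after scaling by the trimmed mean of M-values (TMM), a method that takes the bulk of miRNAs as equal in all libraries. The scaling matters here: it moved all log2 ratios by −0.72 for Enshi black over Large White, by −0.52 for wild boar over Large White and by −0.20 for Enshi black over wild boar, relative to CPM of the library total. Comparisons rest on the 208 miRNAs whose CPM averaged 10 or more, among them all 5 miRNAs followed here. The 95% intervals given are exact and describe counting error alone.

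The 5 miRNAs fell into 3 tiers of abundance that were the same in each library. miR-125b and miR-99a formed the top tier, miR-100 and miR-125a lay several-fold below, and miR-99b was the scarcest. Together the 5 held 3.65% of Enshi black reads (Clopper-Pearson interval 3.63 to 3.66), 3.93% of wild boar reads (3.92 to 3.94) and 2.71% of Large White reads (2.70 to 2.72). A mature miRNA gives 1 read per molecule sequenced, so no length scaling was applied, but sequence-dependent ligation also enters a comparison of levels between different miRNAs and was not tested.

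miR-125b had 123569 reads in the Enshi black, 140566 in the wild boar and 91304 in the Large White library, or 12909, 16683 and 16578 TMM-scaled CPM. It ranked 14, 12 and 16 among 405 miRNAs, with 1.60%, 1.80% and 1.24% of the reads. miR-99a had 120410 reads in the Enshi black, 138240 in the wild boar and 91850 in the Large White library, or 12579, 16407 and 16678 TMM-scaled CPM. The pair were nearly level in each library, with 0.974 reads of miR-99a per read of miR-125b in Enshi black (0.967 to 0.982), 0.983 in wild boar (0.976 to 0.991) and 1.01 in Large White (0.997 to 1.02). In the Large White library their order was not resolved by the counting error.

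miR-100 had 17708 reads in the Enshi black, 14119 in the wild boar and 7052 in the Large White library, or 1850, 1676 and 1280 TMM-scaled CPM. miR-125a, the scarcer member of its family, had 17738, 12280 and 7867 reads in the same libraries, or 1853, 1457 and 1428 TMM-scaled CPM. Their order changed between libraries. miR-100 stood above miR-125a in wild boar, at 1.15 reads per read (1.12 to 1.18), below it in Large White, at 0.896 (0.868 to 0.926), and level with it in Enshi black, at 0.998 (0.978 to 1.02). miR-99b had 2425 reads in the Enshi black, 2263 in the wild boar and 1088 in the Large White library, or 253, 269 and 198 TMM-scaled CPM, and ranked 100, 100 and 109. It lay 7.30-fold below miR-100 in Enshi black (6.998 to 7.62), 5.43-fold below miR-125a in wild boar (5.19 to 5.68) and 6.48-fold below miR-100 in Large White (6.08 to 6.92), the next member up in each case.

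**Figure D1:**
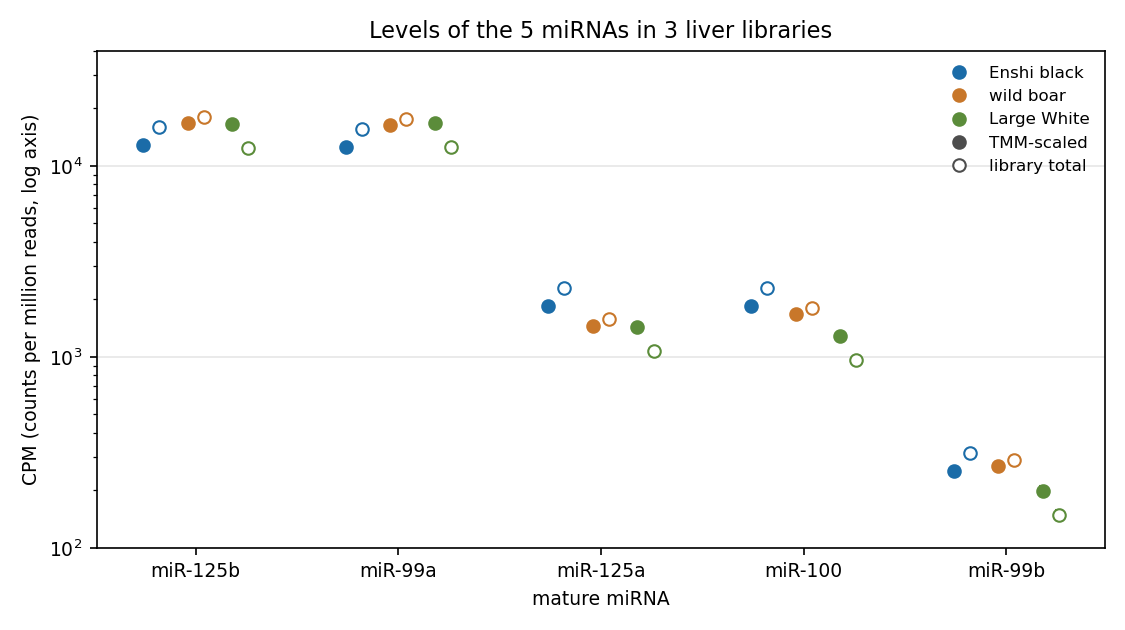
Level of each of the 5 miRNAs (x axis) in CPM on a log axis, with 1 point per library for TMM scaling (filled) and for the library total (open); bars are exact 95% counting intervals and mostly lie within the symbols. miR-125b and miR-99a lie between 12434 and 17964 CPM on either scale, and miR-99b between 148 and 314 CPM, while the choice of scale turns the order of the Enshi black and Large White points round for miR-125b and miR-99a.

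Between the Enshi black and Large White libraries the 5 miRNAs did not have one common ratio. miR-100, miR-125a and miR-99b were higher in Enshi black under each of 4 scalings. On the TMM scale miR-100 stood at 1850 CPM in Enshi black and 1280 CPM in Large White, a ratio of 1.44 (1.41 to 1.49). The ratio was 1.30 for miR-125a (1.26 to 1.33) and 1.28 for miR-99b (1.19 to 1.38). miR-99a and miR-125b were lower in Enshi black on the TMM scale, with ratios of 0.754 (0.748 to 0.761) and 0.779 (0.772 to 0.785), but their direction flipped on library totals, to 1.25 and 1.29, and on totals without miR-122. Ranked among the 208 miRNAs from the highest ratio down, which no scaling can alter, miR-100 was at place 30, miR-125a at 43 and miR-99b at 48, while miR-125b was at 140 and miR-99a at 149.

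None of the 5 was at least 2-fold apart between the Enshi black and Large White libraries after TMM scaling, where 13.9% of the 208 miRNAs were (5 higher and 24 lower). On library totals miR-100, miR-99b and miR-125a passed 2-fold, at 2.39, 2.12 and 2.14, beside 27.4% of all miRNAs that were at least 2-fold higher on that scale. The median log2 ratio of the 5 was 0.36 after TMM and 1.08 on library totals, against −0.12 and 0.60 for all 208 miRNAs. Markers of other cell types differed between the same libraries. The 2 endothelial entries, the arms of miR-126, summed to 15803 TMM-scaled CPM in Enshi black and 10381 in Large White. The 5 smooth muscle, fibroblast and stellate cell entries (miR-143-3p, miR-145-5p, both arms of miR-199a and miR-214) summed to 47867 CPM in Enshi black and 39558 in Large White, with 4 of 5 having a ratio above 1 and the fifth, miR-199a-3p, at 0.944 after TMM and 1.56 on library totals. The 4 hepatocyte entries (miR-122, miR-192, miR-194a and miR-885-5p) summed to 331510 CPM in Enshi black and 676730 in Large White, with 3 of 4 at least 2-fold lower in Enshi black after TMM and 0 of 4 on library totals. The 5 leucocyte entries (both arms of miR-142, miR-150, miR-155-5p and miR-146a-5p) summed to 10556 CPM in Enshi black and 21427 in Large White. After TMM miR-142-3p was past 2-fold at a ratio of 0.450, and 1 of 5 ratios was above 1, that of miR-150 at 1.06. On library totals the leucocyte sums were 13070 CPM in Enshi black and 16071 in Large White. miR-142-5p, miR-150, miR-155-5p and miR-146a-5p then had ratios of 1.06, 1.76, 1.01 and 1.49, and miR-142-3p had 0.743. The 3 red cell entries summed to 3993 CPM in Enshi black and 5483 in Large White after TMM. miR-144 was past 2-fold at 0.408, beside 0.859 for miR-451 and 0.847 for miR-486. On library totals the red cell sums turned to 4944 CPM in Enshi black and 4112 in Large White. There miR-451 had a ratio of 1.42, miR-486 one of 1.40 and miR-144 one of 0.673. Neither miR-142-3p nor miR-144 was past 2-fold on that scale. None of the entries found was at 0. The part of these cell types in the ratios of the 5 miRNAs was not tested, and in a tissue library fewer cells of a type and less RNA per cell cannot be told apart.

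The wild boar and Large White libraries differed less in these miRNAs. miR-99b and miR-100 were higher in wild boar under each scaling, with TMM ratios of 1.36 (1.26 to 1.46) and 1.31 (1.27 to 1.35). miR-125a had a ratio of 1.02 (0.992 to 1.05) and miR-125b one of 1.01 (0.998 to 1.01), both with intervals that held 1; on library totals they had 1.46 and 1.44. miR-99a had a ratio of 0.984 (0.976 to 0.992), which flipped under each other scaling, to 1.41 on library totals. The ranks from the highest ratio were 50 for miR-99b, 55 for miR-100, 94 for miR-125a, 97 for miR-125b and 101 for miR-99a of 208, so the last 3 lay near the middle of all miRNAs. None of the 5 passed 2-fold, where 25.5% of the 208 did after TMM, and none did on library totals, where 21.6% were at least 2-fold higher. The median log2 ratio of the 5 was 0.03 after TMM, against −0.06 for all miRNAs, and 0.55 against 0.46 on library totals.

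Of the marker lists, the leucocyte entries differed most between these libraries, with 4 of 5 at least 2-fold lower in wild boar after TMM, 3 of 5 on library totals, and a sum of 3653 TMM-scaled CPM in wild boar and 21427 in Large White. miR-223 was sought for that list and not found among the names. The red cell entries miR-451, miR-144 and miR-486 summed to 3116 CPM in wild boar and 5483 in Large White. Their TMM ratios were 0.682, 0.262 and 0.962. On library totals the red cell sums were 3356 and 4112 CPM, and the ratios were 0.979, 0.375 and 1.38. The endothelial entries summed to 12176 CPM in wild boar and 10381 in Large White, and the hepatocyte entries to 439954 and 676730. On library totals the endothelial sums were 13111 and 7786 CPM, and the hepatocyte sums 473750 and 507558. Among the hepatocyte entries miR-192 alone was past 2-fold after TMM, at 0.498, and none was on library totals. The smooth muscle, fibroblast and stellate cell entries summed to 40372 CPM in wild boar and 39558 in Large White, with 3 of 5 ratios above 1 after TMM. The part of these in the ratios of miR-99b and miR-100 was not tested.

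Between the Enshi black and wild boar libraries the families split by member. miR-125a was higher in Enshi black under each scaling, at 1853 CPM in Enshi black and 1457 CPM in wild boar, a TMM ratio of 1.27 (1.24 to 1.30). miR-100 was also higher, with a ratio of 1.10 (1.08 to 1.13). miR-99a and miR-125b were lower in Enshi black under each scaling, with TMM ratios of 0.767 (0.761 to 0.773) and 0.774 (0.768 to 0.780). miR-99b had a ratio of 0.943 (0.890 to 0.999), which flipped to 1.08 on library totals. None of the 5 passed 2-fold on either scale, where 12.5% of all miRNAs did after TMM and 7.21% were at least 2-fold higher on library totals. The median log2 ratio of the 5 was −0.08 after TMM, against −0.05 for the 208, and 0.12 against 0.15 on library totals. In this pair the leucocyte entries summed to 10556 TMM-scaled CPM in Enshi black and 3653 in wild boar, with 4 of 5 at least 2-fold higher in Enshi black. The smooth muscle, fibroblast and stellate cell entries summed to 47867 CPM in Enshi black and 40372 in wild boar, with 5 of 5 ratios above 1 and none past 2-fold. The endothelial entries summed to 15803 CPM in Enshi black and 12176 in wild boar, the red cell entries to 3993 and 3116, and the hepatocyte entries to 331510 and 439954. The members of the endothelial and red cell lists did not all go the same way after TMM. There 1 of 2 endothelial ratios was above 1, with miR-126-5p below it. Of the red cell ratios 2 of 3 were above 1, with miR-486 below it, and of the hepatocyte ratios 0 of 4. The part of these cell types in the ratios of the 5 miRNAs was not tested.

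**Figure D2:**
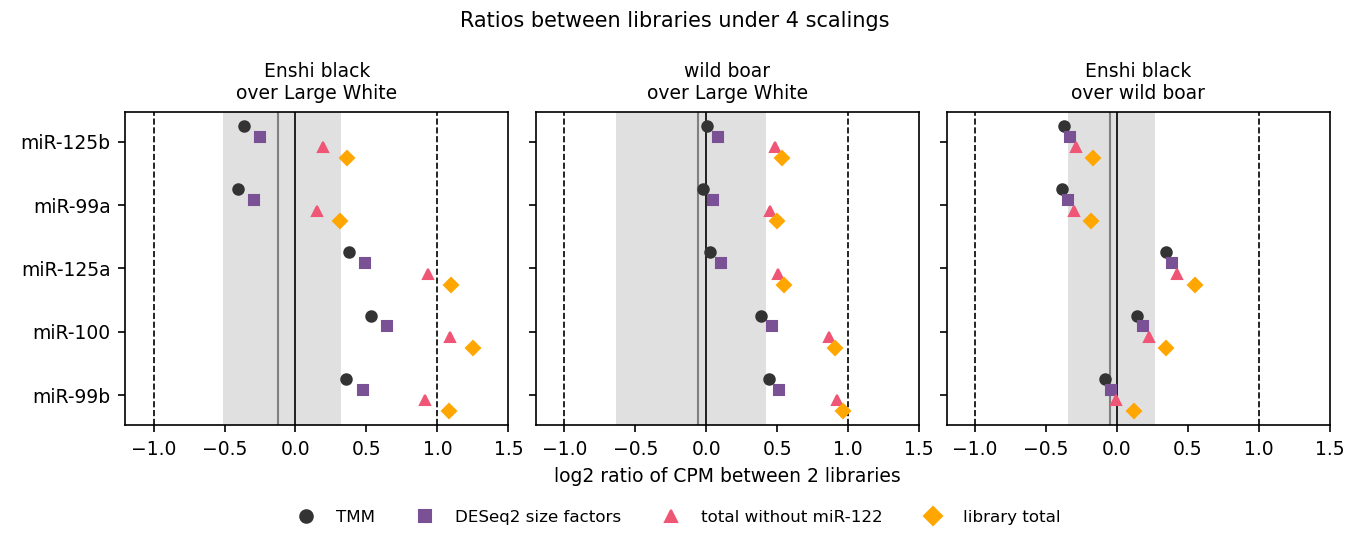
Log2 ratio of CPM between 2 libraries (x axis) for each of the 5 miRNAs (y axis), with 1 panel per pair of libraries and 1 symbol per scaling. The grey band spans the quartiles of all 208 miRNAs after TMM, the grey line is their median, and dashed lines mark 2-fold. In Enshi black over Large White, miR-100, miR-125a and miR-99b lie above 0 under each scaling and past 2-fold on library totals, while miR-125b and miR-99a change side.

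A ratio of 2 miRNAs within a library does not depend on how libraries are scaled, so the balance among the 5 was compared directly. The share of each miRNA in the reads of its seed family gives the simplest view. miR-100 made up 12.6% of the miR-99 and miR-100 reads of Enshi black (Clopper-Pearson interval 12.4 to 12.8), 9.13% of wild boar (8.99 to 9.28) and 7.05% of Large White (6.89 to 7.21). miR-99b made up 1.73% in Enshi black (1.66 to 1.79), 1.46% in wild boar (1.40 to 1.52) and 1.09% in Large White (1.02 to 1.15). miR-99a held the rest, 85.7%, 89.4% and 91.9%. The median change in ratio over all pairs of the 208 miRNAs was 1.53-fold between Enshi black and Large White. It was 1.78-fold between wild boar and Large White and 1.43-fold between Enshi black and wild boar. In the same order miR-99a per miR-100 changed 1.92-fold, 1.33-fold and 1.44-fold, and miR-99a per miR-99b 1.70-fold, 1.38-fold and 1.23-fold. Between wild boar and Large White both changes were thus below the median. miR-125a made up 12.6% of the miR-125 reads in Enshi black (12.4 to 12.7), 8.03% in wild boar (7.90 to 8.17) and 7.93% in Large White (7.77 to 8.10). Here Enshi black stood apart, and wild boar and Large White were within counting error of each other.

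**Figure D3:**
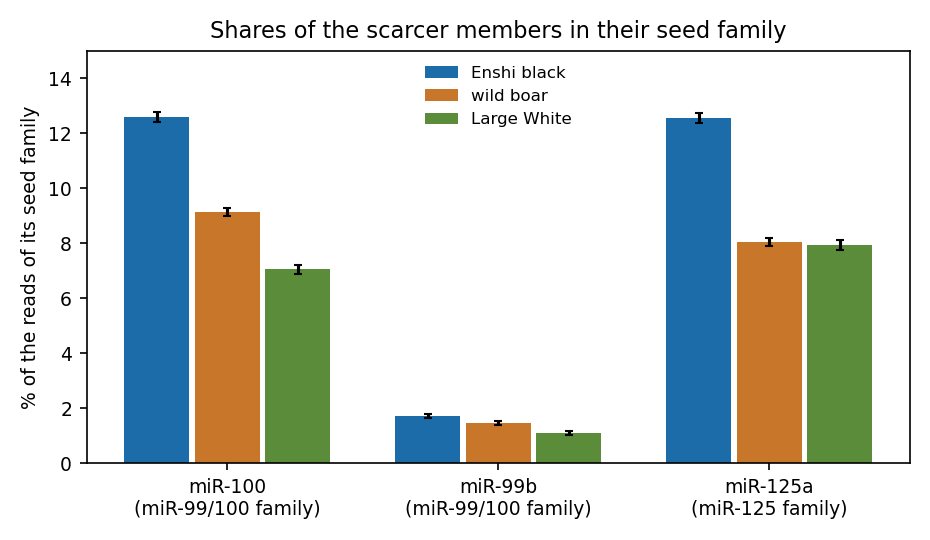
Percent of the reads of its seed family (y axis) held by miR-100, miR-99b and miR-125a, with 1 bar per library from left to right Enshi black, wild boar and Large White, and exact 95% counting intervals. The Enshi black bars reach 12.6% for miR-100 and for miR-125a, above both other libraries.

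The sums of the families moved together. The miR-99 and miR-100 family had 14682 TMM-scaled CPM in Enshi black, 18351 in wild boar and 18156 in Large White. The miR-125 family had 14762, 18140 and 18007 CPM in the same libraries. Each family sum is carried by its dominant member and so follows miR-99a or miR-125b: the ratios of Enshi black over Large White were 0.809 (0.802 to 0.815) and 0.820 (0.813 to 0.826) after TMM. These turned to 1.34 and 1.35 on library totals.

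Among the 10 pairs that the 5 miRNAs form, 6 changed their ratio by at least 1.5-fold between Enshi black and Large White, where 52.4% of all 21528 pairs of the 208 miRNAs did. The 6 were the pairs that set miR-99a or miR-125b against one of the other three. The widest was miR-100 against miR-99a: there were 6.80 reads of miR-99a per read of miR-100 in Enshi black (6.69 to 6.91) and 13.0 in Large White (12.7 to 13.3), a 1.92-fold change. miR-100 per miR-125b changed 1.86-fold (1.80 to 1.91), miR-125a per miR-125b 1.67-fold (1.62 to 1.71) and miR-99b per miR-125b 1.65-fold (1.53 to 1.77). Of all miRNA pairs, 69.0% changed less than the widest of these, miR-100 against miR-99a. For miR-125b against miR-100, miR-125a and miR-99b, 66.4%, 57.6% and 56.5% of all pairs changed less. Within the set of miR-100, miR-125a and miR-99b the ratios changed by 1.13-fold or less. Between wild boar and Large White none of the 10 pairs reached 1.5-fold, where 63.1% of all pairs did, and between Enshi black and wild boar 2 did, where 45.1% of all pairs did. These 2 set miR-125a against miR-125b (1.64-fold, 1.60 to 1.68) and against miR-99a (1.66-fold), where 63.3% and 64.1% of all pairs changed less.

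miR-99a and miR-125b kept the steadiest balance of the 10 pairs in 1 of the 3 breed comparisons and changed by at most 1.03-fold in each. Their ratio changed by a factor of 0.969 between Enshi black and Large White (0.957 to 0.980), 0.978 between wild boar and Large White (0.966 to 0.989) and 0.991 between Enshi black and wild boar (0.980 to 1.002). As a description of these libraries, 4.10%, 2.22% and 1.47% of all miRNA pairs were closer in the same comparisons. The pair miR-99b and miR-125a, neighbours of let-7e, were as close between Enshi black and Large White, at 0.989 (0.915 to 1.07), but not between wild boar and Large White, at 1.33 (1.23 to 1.44), or between Enshi black and wild boar, at 0.742 (0.697 to 0.790). Between wild boar and Large White miR-125a and miR-125b were the steadiest pair, at 1.01 (0.984 to 1.04), where 1.36% of all pairs were closer. That pair changed 1.67-fold between Enshi black and Large White and 1.64-fold between Enshi black and wild boar. The pair miR-100 and miR-125b, whose precursors mir-100 and mir-125b-1 are neighbours, changed by 1.86, 1.30 and 1.43. With 3 libraries each breed comparison shares a library with both others, and any 2 of these factors fix the third.

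**Figure D4:**
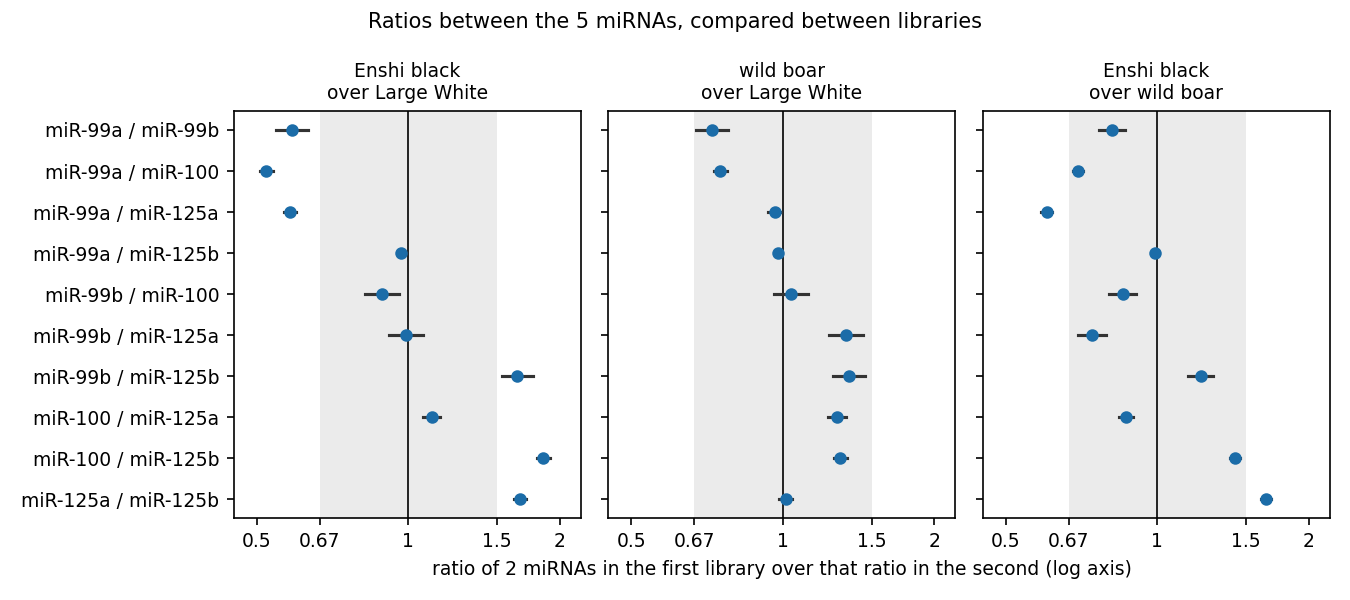
For each of the 10 pairs among the 5 miRNAs (y axis), the ratio of the pair in the first library divided by the same ratio in the second (x axis, log), with exact 95% counting intervals and 1 panel per breed comparison. The grey band marks changes under 1.5-fold. In Enshi black over Large White the points form 2 groups, 6 pairs outside the band and 4 inside, and miR-99a / miR-125b lies next to 1 in each panel.

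The let-7 partners of the clusters gave a further reading that is free of scaling. let-7c, the neighbour of miR-99a, had 120353 reads in Enshi black, 147847 in wild boar and 97786 in Large White. There were 1.0005 reads of miR-99a per read of let-7c in Enshi black (0.993 to 1.01), 0.935 in wild boar (0.928 to 0.942) and 0.939 in Large White (0.931 to 0.948). For miR-125b per let-7c the ratios were 1.03, 0.951 and 0.934. The widest change among these ratios was 1.10-fold, for miR-125b per let-7c between Enshi black and Large White, where 11.9% of all miRNA pairs changed less. The miR-125b precursor matched in the RefSeq table neighbours let-7a-1 instead, and miR-125b per let-7a was 0.532 in Enshi black (0.528 to 0.535), 0.490 in wild boar (0.487 to 0.493) and 0.599 in Large White (0.594 to 0.604). That ratio changed more, by 1.22-fold between wild boar and Large White, where 19.1% of all miRNA pairs changed less.

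let-7e, the neighbour of miR-99b and miR-125a, had 9708 reads in Enshi black, 12326 in wild boar and 5568 in Large White. miR-125a had 1.83 reads per read of let-7e in Enshi black (1.78 to 1.87), 0.996 in wild boar (0.972 to 1.02) and 1.41 in Large White (1.37 to 1.46), a 1.83-fold change between Enshi black and wild boar (1.77 to 1.90). In that comparison 71.2% of all miRNA pairs changed less. miR-99b followed let-7e more closely, with 0.2498, 0.184 and 0.195 reads per read of let-7e, and its counting interval between wild boar and Large White held 1 (0.868 to 1.02). Across the 3 libraries let-7e was thus highest in wild boar by read count, and miR-125a in Enshi black.

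miR-100 had 0.0762 reads per read of let-7a in Enshi black (0.0750 to 0.0774), 0.0492 in wild boar (0.0484 to 0.0500) and 0.0463 in Large White (0.0452 to 0.0474). Relative to let-7a it was thus 1.65-fold higher in Enshi black than in Large White (1.60 to 1.69), 1.55-fold higher in Enshi black than in wild boar (1.51 to 1.59) and 1.06-fold higher in wild boar than in Large White (1.03 to 1.09). Of all miRNA pairs, 56.4%, 58.0% and 5.80% changed less in these comparisons. let-7a has 2 precursors in the files, and only let-7a-1 lies near mir-100. The let-7 values hold fractions of reads shared between family members and depend on how the counting divided them. Of the 9 let-7 family names sought, 8 were found, and let-7b was not. After TMM their median log2 ratio was −0.45 for Enshi black over Large White, −0.29 for wild boar over Large White and 0.11 for Enshi black over wild boar. The medians of all 208 miRNAs were −0.12, −0.06 and −0.05 in the same order. None of the 8 passed 2-fold after TMM in any of the 3 comparisons, where 13.9%, 25.5% and 12.5% of all miRNAs did. Scaled to library totals, the family had medians of 0.27, 0.24 and 0.31, against 0.60, 0.46 and 0.15 for all miRNAs. On that scale let-7e passed 2-fold in wild boar over Large White, at 2.08, where 21.6% of all miRNAs were at least 2-fold higher.

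**Figure D5:**
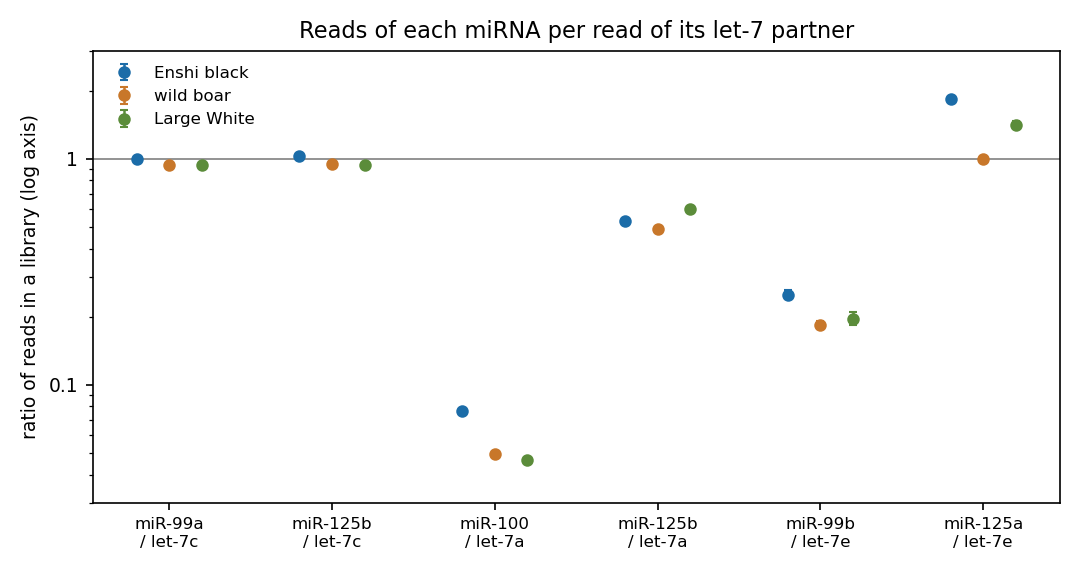
Reads of each miRNA per read of its let-7 partner within a library (y axis, log), for 6 partner pairs with 1 point per library and exact 95% counting intervals. miR-99a and miR-125b per let-7c lie between 0.934 and 1.03 in the 3 libraries, while miR-125a per let-7e spans 0.996 to 1.83.

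miR-10a and miR-10b, whose genes lie in the HOX clusters and whose sequences resemble miR-99 and miR-100, were compared as the nearest relatives outside the families. miR-10a-5p had 19412 reads in Enshi black, 11330 in wild boar and 6858 in Large White, a level like that of miR-100. miR-100 per miR-10a-5p was 0.912 in Enshi black, 1.25 in wild boar and 1.03 in Large White. miR-10b had 932 reads in Enshi black, 786 in wild boar and 268 in Large White, and its TMM ratio of Enshi black over Large White was 2.001 (1.75 to 2.30), at the edge of the 2-fold threshold. miR-10a-5p had a ratio of 1.63 (1.58 to 1.67) in that comparison, so both relatives were higher in Enshi black than in Large White, as miR-100 was, and miR-99a was not on the TMM scale.

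The 2 rows of miR-125b were nearly equal. The precursor mir-125b-1 was given 62113.5 reads and mir-125b-2 61455.5 in the Enshi black library, 70610.5 and 69955.5 in the wild boar library, and 45928.5 and 45375.5 in the Large White library. The fractions in the 2 rows of a library add to whole numbers. mir-125b-1 held 50.3%, 50.2% and 50.3% of the reads, and which cluster made most miR-125b cannot be told from such rows. miR-99a, miR-99b and miR-125a had whole counts in each library, and miR-100 had a fraction, 7051.5, in Large White alone.

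The miRNAs most like each of the 5 over the 3 libraries were found by the Euclidean distance of log2 CPM centred on the mean of the libraries, a description that rests on 3 points. miR-99a and miR-125b were 0.03 apart. No other miRNA was closer to miR-99a, but miR-769-3p and miR-17-3p were closer to miR-125b than miR-99a was. Outside the 5, those nearest to miR-99a were miR-769-3p, miR-17-3p and miR-92b-3p, at 0.05, 0.05 and 0.06. Those nearest to miR-125b were miR-769-3p, miR-17-3p and miR-7134-5p, at 0.02, 0.02 and 0.06. The names nearest to these abundant miRNAs were thus scarce ones, with 22.5 to 28.5 CPM and 157 to 240 reads for miR-769-3p. miR-130a, miR-1306-5p and miR-199b-5p were nearest to miR-99b, at 0.02, 0.05 and 0.06. miR-532-3p, miR-23a and miR-16 were nearest to miR-100, at 0.02, 0.03 and 0.05. For miR-125a they were the smooth muscle miRNA miR-143-3p at 0.03, and miR-2320-5p and miR-345-3p at 0.07 and 0.09. The median distance to the remaining miRNAs lay between 0.57 and 0.66 for each of the 5, and 12 to 25 miRNAs were closer to miR-100, miR-99b and miR-125a than any other of the 5 was.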

How the data were processed

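Per the labels' protocols, small RNA was size-selected on a gel and sequenced as single-end reads. The submitters' processing notes name the build Sscrofa 10.2; aligner, counter and miRNA annotation are not stated. The deposited files hold 486 rows with expected counts, in which reads shared between precursors or names appear as fractions, and RPM, the count over the library sum; the authors' RPM was not used. Counts were summed over precursors and rounded. 6 names that repeat the reads of another were dropped, which left 405 miRNAs and totals of 7730934 (Enshi black), 7824836 (wild boar) and 7343033 (Large White).

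TMM factors, 1.24, 1.08 and 0.750 in that order, came from edgeR 4.0.16 in R 4.3.3 on the 208 miRNAs averaging 10 CPM or more. Ratios between libraries have exact conditional-binomial 95% intervals, and a miRNA was called where it was past 2-fold and the interval excluded 1. Changes in the ratio of 2 miRNAs have exact conditional odds-ratio intervals and were called at 1.5-fold. Reads carry no molecular identifiers. The ratio rule was tested on simulated counts whose only noise was counting error, with miR-122 left unchanged. That simulation held no spread between animals and cannot speak to it. Alternatives were 3 other scalings, among them DESeq2 1.42.0 size factors, other filters, unrounded sums, thinning, a 1.5-fold threshold and keeping the repeated names. Named miRNAs are the 5 followed, their let-7 partners, miR-10 relatives, marker entries (the more abundant arm where none was given) and the 3 nearest in pattern to each of the 5. The miRNAs and lists were chosen with earlier results of these data known.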

Additional observations from a re-analysis of the deposited data

How the results depend on the processing

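Between Enshi black and Large White, no miRNA of the 5 was past 2-fold after TMM, but 3 were on library totals (miR-100, miR-125a and miR-99b) and 1 on totals without miR-122 (miR-100), since each of these scalings raises all ratios of that comparison by a constant. Directions reversed for miR-99a in Enshi black over Large White (log2 ratio −0.41 after TMM, 0.32 on totals, 0.15 without miR-122) and for miR-125b there (−0.36, 0.36 and 0.20). They also reversed for miR-99a in wild boar over Large White (−0.02, then 0.50, 0.45 and 0.0495 with DESeq2 size factors) and for miR-99b in Enshi black over wild boar (−0.08, then 0.12 on totals). The other 11 of 15 log2 ratios kept their direction under the 3 scalings and thinning. The counts past 2-fold were the same under the other filters, unrounded sums, thinning, the 1.5-fold threshold and with the repeated names kept, and also under each scaling in the other breed comparisons. The family shares of the Enshi black and wild boar libraries kept within their intervals after thinning, which leaves the smallest library, Large White, as it is. The nearest names cannot change with the scaling, which adds 1 constant per library to all miRNAs. In the miR-99 and miR-100 family the Enshi black and wild boar shares rest on whole counts already. Shares over whole counts alone could not be had for that family in Large White, where miR-100 holds a fraction, or for the miR-125 family, where both rows of miR-125b do. With 1 library per breed, animals cannot be told apart from breeds. No paired analysis was possible because each breed has 1 library.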

Other observations

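The let-7 family itself did not move as one between wild boar and Large White. On library totals, let-7a, let-7c and let-7e, the partners of the miR-99, miR-100 and miR-125 genes, had log2 ratios of wild boar over Large White of 0.82, 0.50 and 1.05. let-7f, let-7g, let-7i and miR-98 had −0.31, −0.27, −0.03 and −0.16 on the same scale, and let-7d-5p had 0.66. After TMM all of them shift down by 0.52, and the order is unaffected. let-7a, let-7c and let-7e then stood at 0.30, −0.02 and 0.53, and let-7d-5p at 0.14. let-7f, let-7g, let-7i and miR-98 stood at −0.83, −0.80, −0.55 and −0.68. Between Enshi black and wild boar the order was the other way round, with let-7a, let-7c and let-7e at −0.49, −0.48 and −0.53 after TMM. let-7f, let-7g, let-7i and miR-98 stood at 0.31, 0.29, 0.15 and 0.14. let-7d-5p, at 0.07, lay nearer to these than to the partners. In Enshi black over Large White this split was not seen. After TMM let-7c stood at −0.50, beside let-7f, let-7g, let-7i and miR-98 at −0.52, −0.51, −0.41 and −0.54. let-7a had −0.19, let-7e 0.0045 and let-7d-5p 0.21. The wild boar library enters both comparisons that show the split, and the reads of these names were partly divided between family members by the counting.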
